A study of Mus musculus with 23 samples.

Results

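The genes described here encode F-box proteins, the subunits that pick substrates for the SCF ubiquitin ligases, measured by RNA sequencing in mouse skeletal muscle. Members were the protein-coding genes of the count table whose symbol starts with Fbxo, Fbxl or Fbxw and that had a level of at least 1 CPM, the count scaled to the library total, in 3 or more libraries. The muscle genes Fbxo32, Fbxo30, Fbxo40 and Fbxo21 were left out of this choice and appear only beside it. Of 74 candidates, 48 passed, 17 of the Fbxl family, 23 of the Fbxo family and 8 of the Fbxw family, out of 54446 genes in the count table. All 48 were also present in the second table of 15624 genes. Just inside the minimum were Fbxl13 and Fbxl8, at 1 CPM or more in 6 libraries each, and Fbxo5, in 4. For these 3 genes all of those libraries were of denervated muscle, WT or PAX4 KO, and none was innervated. Just outside were Fbxo27, which reached 1.20 CPM and passed in 2 libraries, and Fbxw10, which reached 1.06 CPM and passed in 1. Of the 26 candidates that did not pass, 13 had 0 counts in all 9 libraries, all of them Fbxw genes, where 3 counts would correspond to 0.0701 to 0.138 CPM.

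The libraries came in 2 sets. In the first, with raw counts, WT mice gave innervated control muscle (3 libraries) and muscle at 10 d after denervation (3 libraries), and PAX4 KO mice gave muscle at 10 d after denervation (3 libraries). In the second, all muscle was denervated for 10 d. It came from WT mice labelled con (2 libraries, numbers 2 and 3), from mice labelled NRF1PAL KD, called NRF1 KD here (3 libraries), and from mice labelled NRF1PAL-PAX4 double KD, called double KD here (3 libraries). The second set thus had no innervated muscle. The other 6 samples of the labels, among them the third con library and muscle at 14 d, were not analysed here. The labels give neither age nor sex of the mice, nor how or in which cells PAX4 or NRF1 was removed or reduced. Whether libraries stand for separate animals is not stated, and each p-value therefore reflects spread among libraries that could be technical.

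An SCF ligase is built on the cullin Cul1, with the RING protein Rbx1 at one end and the adaptor Skp1 at the other. The F-box motif docks an F-box protein onto Skp1, and the rest of that protein binds the substrate, through leucine-rich repeats in Fbxl proteins, WD40 repeats in Fbxw proteins and other domains in Fbxo proteins. Ubiquitin chains built by such ligases send proteins to the proteasome, and in wasting muscle the best known F-box protein is atrogin-1, the product of Fbxo32.

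Promoter windows in RefSeq (GRCm38.p6, 250 bases before to 50 after the start) were matched by symbol for 37 of the 48 members. Those of 4 members are shown because the results below turn on them. Fbxo36 and Fbxw17 were the members that rose after denervation with the smallest p, Fbxl22 is the member that was higher in the most comparisons, and Fbxo9 was the member that fell with the smallest p. The windows lie at chr1:84839591-84839890 on the plus strand, chr13:50417614-50417913 on the plus strand, chr9:66514544-66514843 on the minus strand and chr9:78109016-78109315 on the minus strand. They are written 5′ to 3′ on the gene's strand, and capitals mark a match to the E-box CAGCTG.
Fbxo36: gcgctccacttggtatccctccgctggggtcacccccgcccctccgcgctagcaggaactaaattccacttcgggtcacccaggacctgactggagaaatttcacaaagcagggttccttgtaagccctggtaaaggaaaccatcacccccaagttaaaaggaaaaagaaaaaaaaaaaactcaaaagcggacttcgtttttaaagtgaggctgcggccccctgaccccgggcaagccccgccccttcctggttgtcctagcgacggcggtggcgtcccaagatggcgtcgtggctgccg
Fbxw17: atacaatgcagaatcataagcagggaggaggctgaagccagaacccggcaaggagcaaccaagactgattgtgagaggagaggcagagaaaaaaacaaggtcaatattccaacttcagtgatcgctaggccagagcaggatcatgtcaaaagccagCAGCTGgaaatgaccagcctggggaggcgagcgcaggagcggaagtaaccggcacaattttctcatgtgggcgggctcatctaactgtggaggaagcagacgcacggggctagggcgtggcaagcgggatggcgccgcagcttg
Fbxl22: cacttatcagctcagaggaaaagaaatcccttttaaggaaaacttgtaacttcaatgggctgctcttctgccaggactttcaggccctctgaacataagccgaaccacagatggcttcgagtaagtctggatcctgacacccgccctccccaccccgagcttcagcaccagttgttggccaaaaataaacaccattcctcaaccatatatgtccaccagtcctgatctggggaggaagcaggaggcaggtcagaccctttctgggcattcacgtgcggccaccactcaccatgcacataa
Fbxo9: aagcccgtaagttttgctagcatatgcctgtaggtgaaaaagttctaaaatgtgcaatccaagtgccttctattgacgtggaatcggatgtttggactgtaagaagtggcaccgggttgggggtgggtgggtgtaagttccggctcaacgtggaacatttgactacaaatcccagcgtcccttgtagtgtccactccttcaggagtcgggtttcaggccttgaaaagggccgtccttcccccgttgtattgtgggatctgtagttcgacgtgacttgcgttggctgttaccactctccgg
The search covered 4 motifs on both strands. Each member had 1 window, the one nearest its annotated start, while the set of all windows was not cut to 1 per gene. The shares below are thus not of like sets. The windows of Fbxo34 and Fbxl2 lay 22140 and 19440 bases from the annotated start. CAGCTG, an E-box of the kind bound by muscle regulatory factors, was present in 7 of the 37 member windows (18.9%) and in 16.4% of all 32544 windows of the same length. Among the windows shown it occurs once, 94 bases before the start of Fbxw17. The core of the site bound by NRF1, which reads GCGCA, then any base, then GCGC, was present in 3 member windows (8.11%), those of Fbxo42, Fbxo7 and Fbxw5, and in 4.63% of all windows. TGTTTAC, a forkhead core, and CTAAAAATA, a form of the MEF2 site, were in 0 of the 37 member windows, beside 3.66% and 0.516% of all windows. The G and C content of the member windows had a median of 60.7%, and that of all windows 53%.

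Depth was 21716216 to 42821396 counts per library in the first set and 23740769 to 30165765 reads over the listed genes in the second. Pax4 was without a single count in the first set, so it does not check the PAX4 KO label. Nrf1 was at 476 to 524 normalised counts in NRF1 KD muscle and at 444 and 488 in WT con, so its level does not bear out that label either. The libraries are therefore compared as labelled. In all, 2 libraries stood apart from their groups. Chrng, the fetal subunit of the acetylcholine receptor, which muscle makes again once its nerve is lost, was at 16 CPM in WT innervated library 2 against 0.197 and 0.105 in the others. It was at 84.5 CPM in WT denervated library 1 against 151 and 155. For several genes below, the value or the call without these libraries is given too. All 8 fibre markers were detected in every library of the first set, and so was every marker of the other non-neuronal cell types. The neuronal markers Snap25 and Syt1 were at 0 in 8 and 4 of those libraries. Rbfox3 and Tubb3, also neuronal markers, were detected in all of them, at up to 0.291 and 2.59 CPM.

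The members were mostly genes of moderate level. Their mean in innervated WT muscle had a median of 12.9 CPM, and 27 of 48 were at 10 CPM or more. Levels between genes are compared as CPM per kilobase of annotated exon. On this scale the highest in innervated muscle was Fbxo31 (24.1 ± 4.5 CPM per kb, SD, n = 3), which targets cyclin D1. Fbxw5 (23.3 ± 0.959) lay within that spread. Next came Fbxo6 (14.7 ± 1.37), which binds N-glycosylated proteins, Fbxo9 (14.5 ± 0.841) and Fbxo3 (14.1 ± 1.23), which did not differ from each other beyond their spread. The lowest was Fbxl13 (0.0762 ± 0.113), below Fbxl8 (0.41 ± 0.083) and Fbxo5 (0.442 ± 0.0809), the inhibitor of the anaphase-promoting complex also called Emi1. Summed over the 48 members, the level was 1072 to 1197 CPM in innervated WT muscle, 940 to 1037 CPM in denervated WT muscle and 916 to 983 CPM in PAX4 KO muscle, so innervated muscle lay above both denervated groups in every library.

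Denervation moved some F-box genes up and as many down. In denervated against innervated WT muscle, 7 of 48 members rose, 7 fell and 34 did not pass an adjusted p of 0.05 in edgeR's quasi-likelihood test. That is 29.2% of the members, beside 32.3% of all 16146 genes tested, of which 16.5% rose and 15.8% fell. At an unadjusted p under 0.05 there were 21 members, 10 higher and 11 lower, beside 43.4% of all genes. The median log2 fold change of the members was -0.01, against 0.02 for all genes. In innervated muscle the risers were at 0.414 to 8.34 CPM (median 2.32) and the fallers at 10.5 to 102 CPM (median 47.9). Over all genes called, those that rose also had the lower median, 10 CPM (0 to 5164), against 29.6 CPM (0.285 to 106547) for those that fell. Of the 7 risers, Fbxl13 and Fbxl8 passed the minimum of 1 CPM only through denervated libraries, so their low innervated level and their place among the risers follow in part from how members were chosen. The other 5 risers were at 2.15 CPM or more in innervated muscle. Of the 7 risers, 5 were Fbxl genes, a family in which 3 of 17 members also fell. The Fbxo family had 1 riser and 3 fallers of 23, and the Fbxw family 1 of each of 8.

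Fbxo36 (ENSMUSG00000073633, chromosome 1, 84839841 to 84900487, GRCm38, plus strand) rose with the smallest p. It was at 2.32, 2.71 and 1.92 CPM in innervated libraries 1 to 3 and at 5.63, 6.57 and 6.88 CPM in denervated ones, so the lowest denervated library lay above the highest innervated one. Its log2 fold change was 1.45 ± 0.185 (SE), a 2.74-fold rise (edgeR adjusted p = 0.000486). Fbxw17 (ENSMUSG00000037816, chromosome 13, 50417864 to 50433780, plus strand) went from 5.47, 5.81 and 4.01 CPM to 8.52, 10.2 and 12.4 CPM, again without overlap. The change was 1.02 ± 0.191 on the log2 scale (edgeR adjusted p = 0.00304).

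Fbxl22 (ENSMUSG00000050503, chromosome 9, 66508459 to 66514593, minus strand) encodes a sarcomeric F-box protein known from heart muscle, where it promotes the turnover of alpha-actinin and filamin C. It was at 2.36, 3.70 and 2.16 CPM in innervated muscle and at 6.02, 4.20 and 6.05 CPM in denervated muscle. Library 2 of each group is the nearest to the other group, and the groups do not overlap. The log2 fold change was 0.97 ± 0.237 (edgeR adjusted p = 0.0113), and 1.19 without both libraries that stood apart (adjusted p = 0.00717). Its exons share 317 bp (8.06%) with Herc1 on the opposite strand, which fell over the same comparison (log2 fold change -0.38, adjusted p = 0.0413). Herc1 had a mean of 93.6 CPM over the libraries of the first set, far above the level of Fbxl22. The strandedness of the counting is not given in the sources used here, so reads of the shared part cannot be assigned.

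Fbxl2 (ENSMUSG00000032507, chromosome 9, 113963637 to 114046191, minus strand) encodes a lipid-anchored F-box protein that is itself a substrate of the SCF ligase of Fbxo3. Its level was 1.58, 3.45 and 1.43 CPM in innervated libraries and 4.94, 4.87 and 5.97 CPM in denervated ones. Innervated library 2, which stood apart, was the highest of its group but still below all denervated libraries. The log2 fold change was 1.26 ± 0.301 (edgeR adjusted p = 0.0101), and 1.81 without that library. Of the exonic length of Fbxl2, 11.2% is shared with Ubp1 on the opposite strand, whose own fold change was 0.01.

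Fbxl13 (ENSMUSG00000048520, chromosome 5, 21483847 to 21645634, minus strand) had the highest fold change of the members and the lowest level. It was at 0.0493, 1.12 and 0.0697 CPM in innervated muscle, which are 1, 41 and 2 counts, and at 4.60, 3.38 and 2.04 CPM in denervated muscle (191, 121 and 78 counts). The high innervated value is again library 2. With all libraries the log2 fold change was 2.85 ± 0.735, a 7.21-fold rise (edgeR adjusted p = 0.0145). Without library 2, innervated muscle held 3 counts in all, and the ratio of summed levels was 55.1 with an exact 95% counting interval of 18.7 to 268. That interval leaves out the spread between libraries. The size of the change thus depends on 1 library. Its direction is not a separate result, since Fbxl13 passed the minimum of 1 CPM only through denervated libraries.

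Fbxl8 and Fbxl6 completed the risers. Fbxl8 (ENSMUSG00000033313, chromosome 8, 105264648 to 105269326, plus strand) went from 0.936, 0.987 and 0.662 CPM to 1.64, 1.51 and 1.96 CPM. Its log2 fold change of 0.98 ± 0.24 passed (edgeR adjusted p = 0.0115), but just missed without innervated library 3 (adjusted p = 0.0501). The direction is not a separate result for Fbxl8 either, since it passed the minimum of 1 CPM only through denervated libraries. Fbxl6 (ENSMUSG00000022559, chromosome 15, 76535721 to 76538746, minus strand) went from 7.49, 9.92 and 7.60 CPM to 12.4, 11.4 and 14.0 CPM, with no overlap. Its change was 0.59 ± 0.153 (edgeR adjusted p = 0.0143), and 3 single libraries, each left out, ended the call (denervated library 3, innervated library 1 and innervated library 3, with adjusted p of up to 0.0649).

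**Figure D1:**
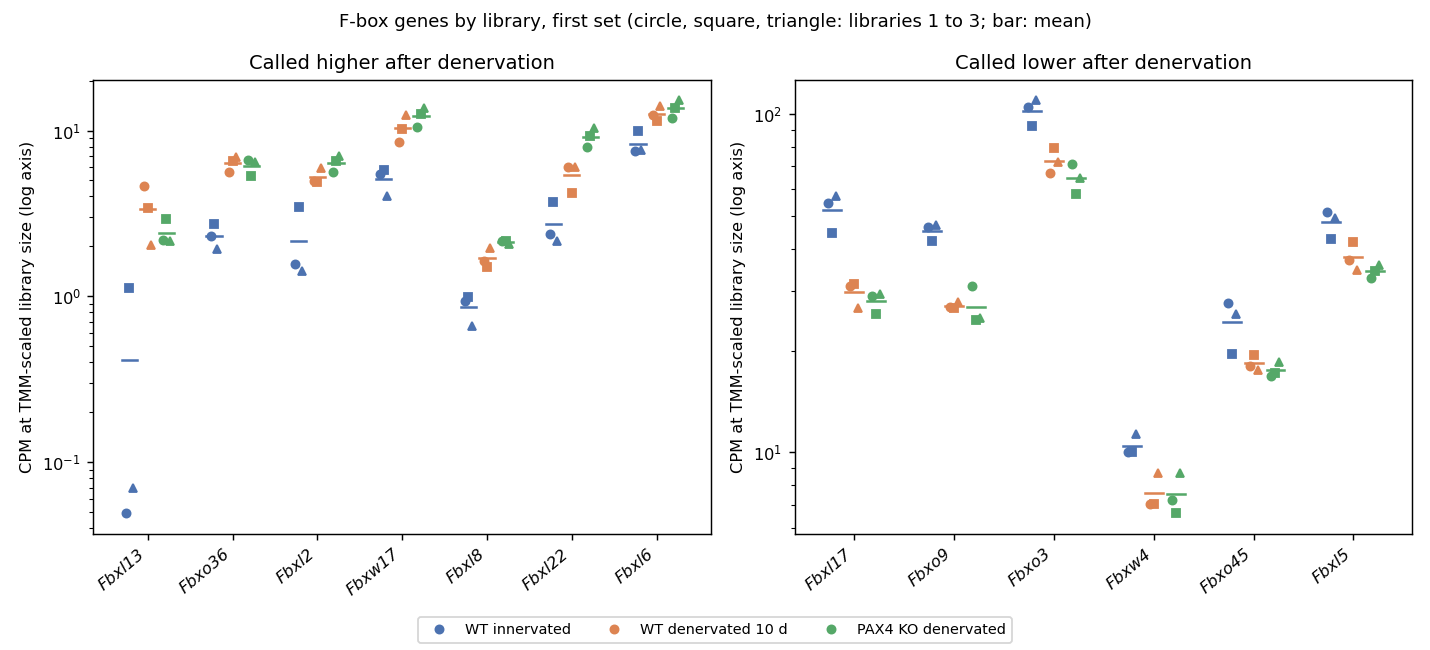
Level of 13 of the 14 F-box genes that passed the test in denervated against innervated WT muscle, in CPM at TMM-scaled library sizes on a log axis, for each library of the first set (circle, square and triangle are libraries 1 to 3, the bar is the group mean). Risers are on the left and fallers on the right. The points of innervated muscle and denervated WT muscle do not overlap for any of the 13, and the innervated square of Fbxl13, at 1.12 CPM, lies far above its circle and triangle.

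Among the fallers, Fbxo9 and Fbxl17 moved most clearly. Fbxo9 (ENSMUSG00000001366, chromosome 9, 78081499 to 78109065, minus strand) encodes an adaptor that acts on the mTOR regulators Tel2 and Tti1. It went from 46.4, 42.1 and 46.9 CPM in innervated muscle to 26.9, 26.8 and 27.8 CPM in denervated muscle, and the 3 denervated values are almost level. The log2 fold change was -0.73 ± 0.109 (edgeR adjusted p = 0.000995). Fbxl17 (ENSMUSG00000023965, chromosome 17, 63057452 to 63500017, minus strand) encodes the adaptor that clears mispaired dimers of BTB proteins. It fell from 54.6, 44.4 and 57.3 CPM to 31.1, 31.6 and 26.8 CPM, by -0.80 ± 0.122 on the log2 scale (edgeR adjusted p = 0.00107).

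Fbxo3 (ENSMUSG00000027180, chromosome 2, 104027721 to 104063240, plus strand), the adaptor that targets Fbxl2 as described above, was at 105, 92.4 and 110 CPM in innervated and 66.8, 79.6 and 72 CPM in denervated muscle. The groups were apart and the log2 fold change was -0.49 ± 0.119 (edgeR adjusted p = 0.0111). At the RNA level Fbxo3 fell while Fbxl2 rose, and a link between these changes was not tested. The calls of Fbxo36, Fbxw17, Fbxl2, Fbxl22, Fbxo9, Fbxl17 and Fbxo3 held under each alternative that tested them. That of Fbxl13 held too, which is no separate support, since it passed the minimum only through denervated libraries.

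Of the other fallers, 3 are described here. They changed less, and their calls were lost in 7 to 8 of 13 alternatives each. Leaving out innervated library 1, innervated library 3 or denervated library 1 ended each of the 3 calls. The call of Fbxw4 was also lost without innervated library 2 and without both libraries that stood apart. The largest adjusted p in any alternative was 0.132 for Fbxl5, 0.144 for Fbxo45 and 0.121 for Fbxw4. Fbxl5 (ENSMUSG00000039753, chromosome 5, 43744615 to 43821638, minus strand), the iron sensor that controls iron regulatory protein IRP2, went from 51.4, 42.8 and 49.4 CPM to 37.0, 41.9 and 34.6 CPM (log2 fold change -0.34 ± 0.11, edgeR adjusted p = 0.0379). The innervated library nearest to denervated muscle was library 2. Fbxo45 (ENSMUSG00000035764, chromosome 16, 32230112 to 32247158, minus strand), a synaptic adaptor that works with Mycbp2, was at 27.7, 19.5 and 25.6 CPM and then at 18, 19.5 and 17.6 CPM, where innervated and denervated libraries 2 are almost level (-0.40 ± 0.13, adjusted p = 0.0382). Fbxw4 (ENSMUSG00000040913, chromosome 19, 45578254 to 45660312, minus strand), the gene of the mouse limb mutant dactylaplasia, went from 10.0, 10.0 and 11.4 CPM to 7.05, 7.02 and 8.69 CPM (-0.47 ± 0.15, adjusted p = 0.0365). It shares 21.4% of its exonic length with Gm17018 on the opposite strand.

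**Figure D2:**
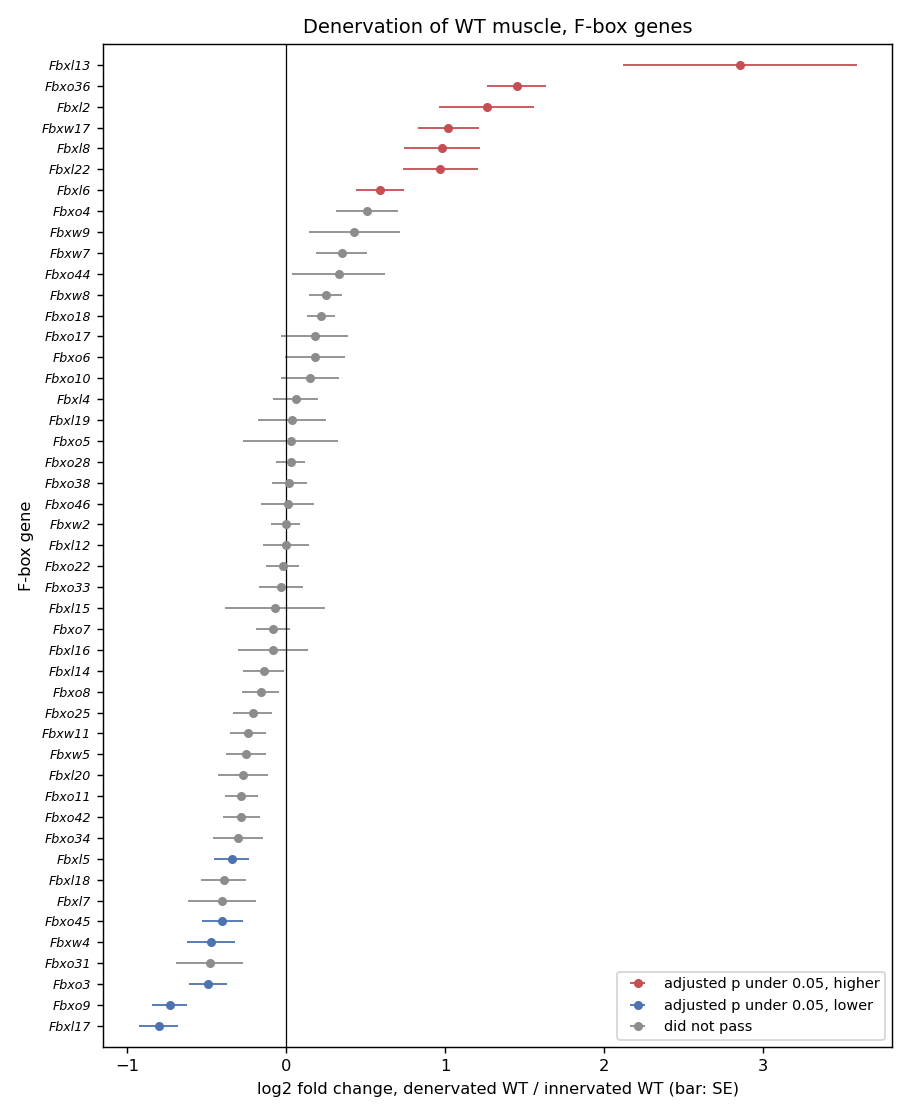
Log2 fold change of 47 of the 48 F-box genes in denervated against innervated WT muscle (horizontal axis), with bars of 1 SE, in falling order. Red and blue mark genes that passed an adjusted p of 0.05, and grey the others. The values run from -0.80 for Fbxl17 to 2.85 for Fbxl13, and the 7 highest all passed while grey genes lie among the lowest ones.

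Of the 34 members that did not pass, several are known for defined roles. Fbxw7, which targets cyclin E, Myc and Notch, was at 32.6, 24.5 and 33.9 CPM in innervated and 30.6, 41.0 and 44.3 CPM in denervated muscle. The groups overlap through denervated library 1 (log2 fold change 0.35 ± 0.159, edgeR adjusted p = 0.117), and without both libraries that stood apart the change was 0.36 with an adjusted p of 0.0339. Fbxo6 likewise was at 24.7, 41.3 and 44.0 CPM in denervated muscle against 30.4, 35.8 and 30.8 CPM, a log2 fold change of 0.18 (edgeR adjusted p = 0.498), and of 0.48 (adjusted p = 0.0118) without those 2 libraries. Their removal was chosen after the data were seen, and it drops the lowest denervated value of both genes. Fbxl4, a mitochondrial protein that restrains mitophagy, had a mean of 24.0 ± 3.12 CPM before and 25.1 ± 3.84 CPM after denervation (SD, n = 3), and Fbxo7, which binds the proteasome regulator PI31, 13.0 ± 0.214 and 12.3 ± 1.01 CPM. Fbxo31 fell short of the threshold at 118, 118 and 161 CPM against 67.7, 101 and 116 CPM (log2 fold change -0.48 ± 0.21, edgeR adjusted p = 0.108). Neither the 4 glycoprotein-binding genes that were tested (the members Fbxo6, Fbxo17 and Fbxo44, and Fbxo27) nor the 6 members tied to cell division had a call. Of the 3 synaptic members tested, Fbxo45 alone had one.

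Leaving out the 2 libraries that stood apart gave 16 member calls in place of 14. Leaving out innervated library 1 gave 9 and innervated library 3 gave 8. Groups did not overlap for 25 of 48 members, 10 higher and 15 lower after denervation, beside 46.6% of all genes tested. Other cell types moved with denervation too. In edgeR 7 of 10 macrophage markers rose (summed level 117 to 356 CPM innervated, 422 to 863 CPM denervated) and 6 of 6 endothelial markers fell (764 to 885 against 424 to 551 CPM). Of the Schwann cell markers 3 of 6 fell (124 to 196 against 32.9 to 45.8 CPM), of those of smooth muscle and pericytes 4 of 5 fell, and of the fibre markers 4 of 8 fell and 1 rose. Their part in the member changes was not tested. In bulk muscle, fewer cells of a type and less RNA per cell cannot be told apart.

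In PAX4 KO against WT muscle, both denervated, no member passed in edgeR's test, in which 0.0186% of all genes did. DESeq2 called 0 members as well, and 4 members had an unadjusted p under 0.05 in edgeR, beside 12.9% of all genes. Fbxl22 came first, at 7.92, 9.21 and 10.3 CPM in PAX4 KO muscle against 6.02, 4.20 and 6.05 CPM in WT, where each PAX4 KO library lies above each WT library (log2 fold change 0.75 ± 0.227, edgeR adjusted p = 0.293). Without both libraries that stood apart it was 0.83 and still did not pass (adjusted p = 0.0824). Groups did not overlap for 5 members that were higher and 3 that were lower, beside 16.9% of all genes tested. Fbxl14, which acts on Snail proteins, was at 8.57, 10.6 and 10.5 CPM against 8.02, 7.64 and 7.59 CPM (0.35 ± 0.128, adjusted p = 0.328). Fbxw7 was at 30.0, 30.5 and 27.3 CPM, just below the lowest WT value of 30.6 (-0.40 ± 0.159, adjusted p = 0.355). Fbxo6 was at 29.0, 25.0 and 28.3 CPM, where WT library 1 at 24.7 CPM lies lower still (-0.42 ± 0.188, adjusted p = 0.385).

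Without WT denervated library 1 and innervated library 2, Fbxw7 (-0.55, edgeR adjusted p = 0.0443) and Fbxo6 (-0.64, adjusted p = 0.0343) passed as lower in PAX4 KO muscle. That removal was chosen after the data were seen. It drops the lowest denervated WT value of both genes and so widens both differences, and these passes are therefore no separate support. Of the members named for a known role, Fbxl5, Fbxl4, Fbxo7 and Fbxo45 overlapped between the groups. Summed macrophage markers were at 771 to 1350 CPM in PAX4 KO muscle and at 863, 422 and 431 CPM in denervated WT libraries 1 to 3, and fibro-adipogenic markers at 2229 to 5764 against 1417 to 1859 CPM. None of these markers passed the test, and their part in the values of the members was not tested. This comparison shares its WT libraries with the one on denervation.

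In the second set, levels are in normalised counts, which are not comparable with the CPM above. In NRF1 KD against WT con muscle, Fbxl22 alone of the 48 members passed limma's test, and it was higher. No member passed as lower. This is 1 of 48, beside 11.3% of all 15624 genes, 7.58% higher and 3.72% lower. Fbxl22 was at 269 and 192 in the 2 con libraries and at 363, 494 and 411 in NRF1 KD libraries 1 to 3, all above con (log2 fold change 0.88 ± 0.213, a 1.84-fold difference, limma adjusted p = 0.0260). The call was lost in 4 of 11 alternatives, without NRF1 KD library 2, NRF1 KD library 3 or con library 3 and with the library numbers as a block, with adjusted p of up to 0.139.

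At an unadjusted p under 0.05 there were 10 members, 3 higher and 7 lower in NRF1 KD muscle, beside 27.6% of all genes. Fbxw7 had the second smallest p, at 1878 and 1599 in con and 1216, 960 and 945 in NRF1 KD libraries, which are all lower (log2 fold change -0.75 ± 0.229, limma adjusted p = 0.0623). With the WT con and NRF1 KD libraries fitted alone it passed (adjusted p = 0.0190). In the authors' deposited table Fbxw7 has a log2 fold change of -0.74 and an adjusted p of 0.0125, and Fbxl22 has 0.88 and 0.00226. Those were the only 2 members under 0.05 there. Fbxo45 was at 799 and 676 in con and 567, 580 and 510 in NRF1 KD muscle (-0.41 ± 0.149, limma adjusted p = 0.102). Fbxl7, which acts on Aurora A and survivin, was at 93.6 and 113 in con and 209, 131 and 155 in NRF1 KD muscle (0.65 ± 0.237, limma adjusted p = 0.104).

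By family, all 8 Fbxw members had a negative log2 fold change in NRF1 KD against con, with a median of -0.19, as did 6 of 17 Fbxl members and 14 of 23 Fbxo members. The median of all 48 was -0.07, and that of all genes 0.00. Among those of known role, Fbxl4 (1039 and 830 against 798, 779 and 679) and Fbxl5 (1591 and 1519 against 1375, 1449 and 1202) were lower in each NRF1 KD library. In this comparison 45.9% of all genes had no overlap between the groups. Neither passed, with log2 fold changes of -0.31 and -0.22 and limma adjusted p of 0.160 and 0.214. Fbxo7, whose window holds the NRF1 core motif, overlapped (508 and 399 against 412, 406 and 394, log2 fold change -0.16, limma adjusted p = 0.503). Fbxo42, whose window also holds it, overlapped between the groups (log2 fold change -0.05, adjusted p = 0.886). Fbxw5, the other member with that motif, was lower in each NRF1 KD library (2033 and 1908 against 1727, 1693 and 1667, log2 fold change -0.22, adjusted p = 0.172). All 10 macrophage markers rose in NRF1 KD muscle (summed level 18052 to 36666 against 7756 and 10347 in con), as did 2 of 5 fibro-adipogenic markers. Their part in the values of the members was not tested.

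**Figure D3:**
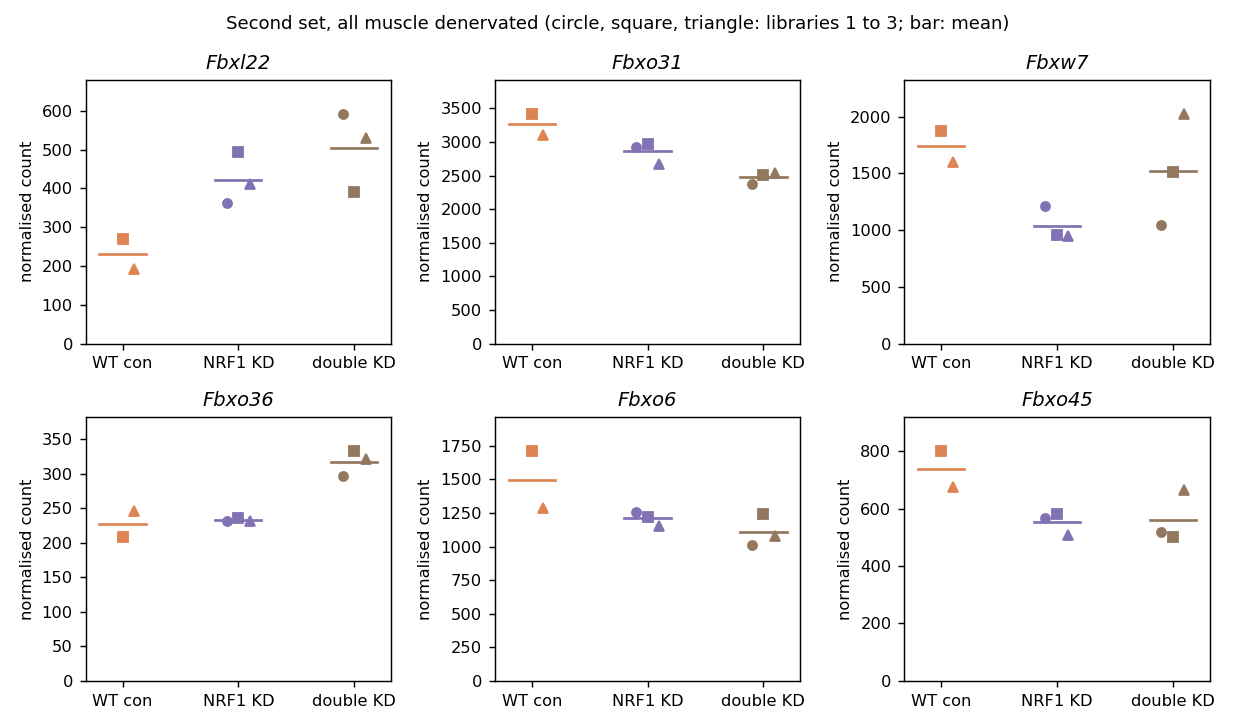
Normalised counts of 6 F-box genes in each library of the second set, all of denervated muscle, with axes from 0 (symbols are library numbers 1 to 3, the bar is the group mean). Every NRF1 KD and double KD library of Fbxl22 lies above the con values of 269 and 192, and every double KD library of Fbxo31 lies below the con values of 3413 and 3110.

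In double KD against WT con muscle, 1 member rose and 1 fell in limma's test, beside 4.08% of all genes, 2.39% higher and 1.7% lower. Fbxl22 rose again, to 591, 392 and 531 from the con values of 269 and 192 (log2 fold change 1.13 ± 0.213, a 2.18-fold difference, limma adjusted p = 0.0220). Its call was lost in 5 of 11 alternatives, among them the fit with only these groups (adjusted p = 0.0551), the block on library numbers (0.0912) and the leaving out of double KD library 3, con library 2 or con library 3. Fbxo31 (ENSMUSG00000052934, chromosome 8, 121549440 to 121578806, minus strand) fell from 3413 and 3110 in con to 2379, 2505 and 2537, with NRF1 KD in between at 2928, 2973 and 2674. Its log2 fold change was -0.40 ± 0.093 (limma adjusted p = 0.0419), and the call was lost in 8 of 11 alternatives, the removal of any 1 con or double KD library included, with adjusted p of up to 0.278. Here too the authors' deposited table has only these 2 members under 0.05, at log2 fold changes of 1.13 and -0.40.

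Fbxo36 and Fbxo6 had the next smallest p of the 11 members under an unadjusted 0.05 in this comparison, beside 21.4% of all genes. Fbxo36 was at 208 and 245 in con and at 297, 332 and 322 in double KD muscle, all higher (log2 fold change 0.49 ± 0.144, limma adjusted p = 0.0842). Fbxo6 was at 1708 and 1290 in con and at 1011, 1241 and 1081 in double KD muscle, all lower (-0.42 ± 0.135, limma adjusted p = 0.103). Fbxw7 was lower in 2 double KD libraries, at 1043 and 1509, and above both con libraries in the third, at 2023 (log2 fold change -0.24, limma adjusted p = 0.602). Fbxo45 was lower in each of them, at 518, 502 and 666 (-0.40, adjusted p = 0.155). Of the 10 macrophage markers 1 passed, and all 10 had a positive log2 fold change (median 0.95) and an unadjusted p under 0.05 (summed level 14000 to 22271, against 7756 and 10347 in con). Of 5 fibro-adipogenic markers 1 rose (summed level 32967 to 71430, against 18251 and 35622). Their part in the values of the members was not tested. In this comparison 35.7% of all genes had no overlap between the groups. Both comparisons with con rest on the same 2 con libraries.

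In double KD against NRF1 KD muscle no member passed, either in limma or in edgeR on recovered reads, beside 0.134% of all genes in limma, 0.0768% higher and 0.0576% lower. In limma 4 members had an unadjusted p under 0.05, beside 11.2% of all genes. Fbxo36 was at 297, 332 and 322 in double KD and 231, 236 and 231 in NRF1 KD muscle, without overlap and with NRF1 KD between the con values of 208 and 245 (log2 fold change 0.44 ± 0.129, limma adjusted p = 0.220). Fbxo31 was lower in each double KD library (-0.21 ± 0.0832, adjusted p = 0.368). Groups did not overlap for 4 members that were higher and 4 that were lower, beside 16.3% of all genes. Fbxo9 (974, 1284 and 1236 against 978, 914 and 887) and Fbxw7 overlapped, with log2 fold changes of 0.32 and 0.51 and adjusted p of 0.309 and 0.369. Fbxl22 overlapped as well, and its difference of 0.25 ± 0.191 did not pass (limma adjusted p = 0.668).

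**Figure D4:**
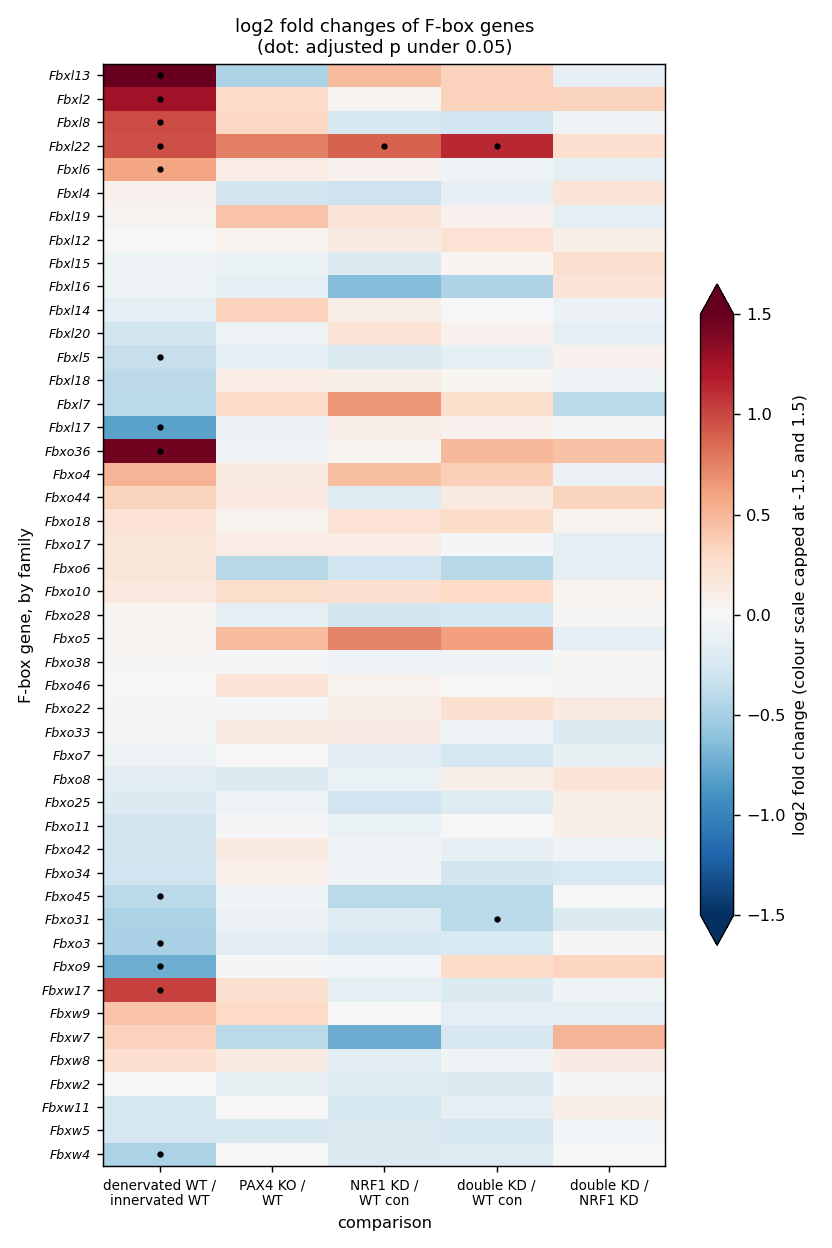
Log2 fold changes of 47 of the 48 F-box genes (rows, by family) in the 5 comparisons (columns), on a colour scale capped at -1.5 and 1.5, with dots where the adjusted p was under 0.05 (edgeR in the 2 left columns, limma in the others). The left column holds 13 dots, the PAX4 KO column and the rightmost column none, and Fbxl22 has 3 dots in its row, from 0.88 to 1.13. The first pair of columns shares the denervated WT libraries, and the comparisons with con share the con libraries.

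Of 33 genes of the SCF core and its regulators, 4 rose and 5 fell after denervation (27.3%, beside 32.3% of all genes). Skp1a, which encodes Skp1, was at 216 ± 21.8 CPM in innervated and 250 ± 36.2 CPM in denervated WT muscle (SD, n = 3) and did not pass (log2 fold change 0.22, edgeR adjusted p = 0.238). The scaffold gene Cul1 was at 102 ± 13.1 and 115 ± 12 CPM (0.17, adjusted p = 0.313). Rbx1 fell from 82.6, 82.3 and 79.8 CPM to 54.8, 63.6 and 60.6 CPM, without overlap (-0.45 ± 0.0943, edgeR adjusted p = 0.00534), and kept its call in all 13 alternatives. Ube2r2 and Ube2d1, which encode ubiquitin-conjugating enzymes that serve SCF ligases, fell most of this list. Ube2r2 went from 174, 155 and 155 CPM to 72.8, 77.1 and 67.1 CPM (log2 fold change -1.16 ± 0.107, adjusted p = 0.00012) and Ube2d1 from 149, 104 and 147 CPM to 65.4, 68.2 and 55.5 CPM (-1.08 ± 0.151, adjusted p = 0.000746).

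The other calls on this list after denervation were in neddylation, the modification that activates cullins, and in the COP9 signalosome that removes it. Uba3, a subunit of the NEDD8-activating enzyme, rose (log2 fold change 0.43, edgeR adjusted p = 0.0162), as did the signalosome genes Cops3 (0.40, adjusted p = 0.0225) and Cops6 (0.40, adjusted p = 0.0388). Of the genes for NEDD8 ligase subunits of the Dcun1d family, Dcun1d4 rose (0.91, adjusted p = 0.00255) while Dcun1d1 (-0.42, adjusted p = 0.0419) and Dcun1d2 (-0.87, adjusted p = 0.0019) fell.

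In PAX4 KO against WT muscle 0 of the 33 passed in edgeR, 5 had an unadjusted p under 0.05 (beside 12.9% of all genes), all lower, and 31 had a negative log2 fold change (median -0.17, against 0.01 for all genes). In NRF1 KD against con 5 fell and 0 rose in limma (15.2%, beside 11.3% of all genes, 3.72% lower). The log2 fold change was negative for 30 of the 33 (median -0.25) and for 7796 of all 15624 genes (median 0.00). The 5 were Skp1a, Ube2g1, Dcun1d2, Dcun1d4 and Gps1, a signalosome subunit. Skp1a went from 13244 and 11937 in con to 9330, 9461 and 8183 (log2 fold change -0.49 ± 0.116, limma adjusted p = 0.0242), a call lost in 4 of 11 alternatives (without NRF1 KD library 2, NRF1 KD library 3 or con library 2 and with the block, adjusted p of up to 0.179). In double KD against con, Dcun1d2 (-0.46, limma adjusted p = 0.0351) and Dcun1d4 (-0.58, adjusted p = 0.0255) fell and 0 rose. Of the 8 fibre markers, 7 had a negative log2 fold change in PAX4 KO against WT (median -0.33) and 6 in NRF1 KD against con (median -0.19). In double KD against con 4 were negative and 4 positive (median 0.06). None of these markers passed, and their part in the values of the SCF genes was not tested.

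Among 7 F-box genes measured whose symbols lack the family prefix, Ect2l rose after denervation, from 1.03, 0.631 and 0.0349 CPM to 2.74, 2.57 and 1.75 CPM (log2 fold change 2.10 ± 0.657, edgeR adjusted p = 0.0330). That call was lost without both libraries that stood apart (2.13, adjusted p = 0.105). The histone demethylase genes Kdm2a (-0.36, adjusted p = 0.0222) and Kdm2b (-0.70, adjusted p = 0.00298) fell. The call of Kdm2a was lost in 6 of 13 alternatives (adjusted p of up to 0.0845). Of the 4 muscle genes left out by the rule, Fbxo30, whose product MUSA1 is an atrophy ligase, rose after denervation (0.91 ± 0.16, edgeR adjusted p = 0.00227). Fbxo32 did not pass there (0.46 ± 0.224, adjusted p = 0.140), with WT denervated library 1 at 416 CPM against 767 and 676 in the others. It passed as higher without that library (0.68, adjusted p = 0.0208) and without both libraries that stood apart (0.54, adjusted p = 0.0251). Each removal drops the lowest denervated value, and that of both was chosen after the data were seen. These passes are therefore no separate support. In double KD against con Fbxo32 fell (-0.61 ± 0.119, limma adjusted p = 0.0240), a call lost in 4 of 11 alternatives (adjusted p of up to 0.178, without con library 2).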

How the data were processed

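RNA came from mouse skeletal muscle, and libraries were made from 1 ug of total RNA with a SMARTER mRNA kit, per the labels' protocols. Of builds, the submitters' processing notes name GRCm38 and mm10. No aligner, counter or strandedness is given in the sources used here. The first table deposited by the authors holds raw counts of 9 libraries. The second table deposited by the authors holds log2 variance-stabilised values of 8 libraries, with a mean signal per gene and, as deposited, the p-values and adjusted p of their DESeq2 tests. The deposited log2 values (smallest 6.84) were inverted to normalised counts. Their mean then lay within 3.34e-07% of the deposited signal column, and 100% of the reads recovered from them were within 0.05 of a whole number.

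Columns of the first set were tied to groups by their names and numbered 1 to 3 within a group. Counts were tested with edgeR 4.0.16 (R 4.3.3; quasi-likelihood F test, TMM, filterByExpr, 3 groups in 1 fit). Normalised counts plus 1 were tested on the log2 scale with limma 3.58.1 (limma-trend), so fold changes of low genes are understated there. P-values were adjusted over all genes by Benjamini-Hochberg and 0.05 was the threshold. CPM use TMM-scaled library sizes, except in the choice of members. A gene without overlap has every library of one group above every library of the other. Alternatives were DESeq2 1.42.0 and its size factors, other filters and pseudocounts (0.1 and 5), edgeR on recovered reads, only the groups compared, a block on library numbers and each library left out. Leaving out both libraries that stood apart was added after the data were seen. In simulated counts for the denervation comparison, 52% of 200 genes changed 2-fold were recovered, and 7.96% of the calls were false. Only those 200 of 15823 genes were changed there, whereas 32.3% of all genes were called in the data. The 52% is therefore not the power of the test in these data.

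Genes were named by rule: called members (at most 10 per direction), the 4 with the smallest p where fewer were called, 7 members of known role, the 4 highest per exonic length and the SCF partners. Chrng and the other genes left unnamed by this rule were chosen after their values were seen. Results of 1 member are not reported here, though the counts include it. Members and lists were chosen with earlier results of these data known. Exon lengths came from GENCODE on GRCm38, and 46 of 48 members had there the position given in the count table. Innervated and denervated WT columns share numbers in their names, which the labels do not tie to an animal. Same-numbered libraries correlated at 0.0312 to 0.268 and the others at -0.306 to 0.0128, so all same-numbered values lay above the others, though 1 was under 0.1. A pairing is thus possible. As the labels give none, the main test took none, and a block on the numbers was run as an alternative. In the second set same-numbered libraries correlated at -0.483 to 0.396.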

Additional observations from a re-analysis of the deposited data

How the results depend on the processing

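After denervation the count of 14 members called ran from 8 to 15 with 1 library left out, 9 without innervated library 1 and 8 without innervated library 3. It was 12 with a replicate block, which ended 3 calls, among them Fbxl5 (adjusted p = 0.0965) and Fbxo45 (0.0807). There each innervated library correlated best with the denervated one of its own number, a hint from the data and not from the labels. In PAX4 KO against WT the count was 0 throughout, except for 2 without both libraries that stood apart. For NRF1 KD against con the count of 1 became 0 with a replicate block and 2 with only the groups compared, and ran from 0 to 1 with 1 library left out. For double KD against con the count of 2 became 1 with edgeR on recovered reads, 0 with a replicate block and 0 with only the groups compared, and ran from 0 to 1 with 1 library left out. For double KD against NRF1 KD it was 0 in every alternative. The cause of these shifts was not tested, apart from the fewer libraries in each reduced fit. No named gene changed direction while called. Of 986 values of named genes under alternatives, 924 stayed on the same side of the threshold, 53 lost a call and 9 gained one. Only genes called in the main fit can lose a call, and the 986 include many that were not called. The share that stayed is therefore no measure of how stable calls were. After denervation, losses ran from 0 of 13 alternatives for Fbxo36 to 8 of 13 for Fbxo45. In double KD against con, Fbxo31 lost its call in 8 of 11. No replicate block was run for PAX4 KO against WT, whose columns share no number. With 1 con library left, that library is assumed to vary like the other groups. Depth limits the lowest members: at 3 counts, a gene stands at 0.0701 to 0.138 CPM in the first set, and intervals cover counting error only.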

Other observations

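The deposited and the present analyses of denervation called partly different members. In the authors' deposited table for denervated against innervated muscle, 10 members were under an adjusted p of 0.05, of which 9 are among the 14 called here. The tenth was Fbxo11, an adaptor known to target Bcl6, with an adjusted p of 0.0192 there. In edgeR it had a log2 fold change of -0.28 ± 0.102 and an adjusted p of 0.0576, with each denervated library below each innervated one.

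Of the 48 members, 16 share exonic bases with another annotated gene, 15 of them with one on the opposite strand. The share of exonic length was 37.1% for Fbxl12 with Ubl5, 33.4% for Fbxw8 with Gm9754 and 25.6% for Fbxl15 with Cuedc2. Ubl5 was at a mean of 69.8 CPM and Cuedc2 at 47.3 CPM, both above the innervated means of 6.09 CPM for Fbxl12 and 1.66 CPM for Fbxl15. Reads of the shared bases cannot be assigned to either gene without strand.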
